A study of Rattus norvegicus with 6 samples.

Results

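The TGF-beta, activin and BMP signalling family was examined in left ventricular myocardium of transplanted rat hearts. Its members were taken from the deposited expression table by name: every gene beginning with Tgfb, Inhb, Acvr, Bmpr, Smad, Fst or Ltbp, every gene beginning with Bmp or Gdf and a number, and Inha, Nog, Grem1 and Chrd, without Gdf15 and Ltbr. This gave 65 of the 22250 genes in the table. RNA-Seq had been performed on 3 young donor hearts (animals 3, 13 and 15, donors of 10 weeks) and 3 aged donor hearts (animals 3, 4 and 7, donors of 1 year). All donors were wild-type Sprague-Dawley rats. All hearts were kept cold in University of Wisconsin solution, placed heterotopically in young recipients, and collected on postoperative day 1, so both groups shared storage and grafting and no ungrafted heart was part of the comparison. A graft is perfused by its recipient, and the tissue can therefore hold recipient blood cells. The labels number the animals within a group and do not otherwise describe how the samples are related, and p-values measure the spread between these hearts.

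Ligands of this family are secreted dimers that bring a type II and a type I serine/threonine kinase receptor together. The type I receptor then phosphorylates receptor-regulated Smads, which join Smad4, enter the nucleus and regulate transcription, with Smad2 and Smad3 acting mainly for TGF-beta and activin and Smad1, Smad5 and Smad9 for BMPs. Latent binding proteins hold TGF-beta in the matrix, secreted antagonists trap activins or BMPs, and Smad6 and Smad7 limit the signal inside the cell. In the heart the family is known for its part in fibroblast activation and scar formation after injury.

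The libraries held 21457509 to 24560869 reads on genes. Mitochondrial genes took 21.7%, 21.7% and 11.9% of these reads in young animals 3, 13 and 15 and 6.56%, 7.99% and 10.3% in aged animals 3, 4 and 7, and the TMM factors were 0.733 to 1.09 in the young and 1.13 to 1.24 in the aged donor hearts. Neither overlapped between groups. The part of the mitochondrial share in the results was not tested. Values with library totals alone, which leave the TMM factors out, are given beside the member calls they end or add. Values are given as CPM, read counts scaled to a common library size with TMM factors, and 3 reads, taken as the smallest signal, corresponded to 0.0985 to 0.191 CPM, a floor that covers counting error only. The 10 cardiomyocyte markers found in the table summed to 91560, 101400 and 12130 CPM in young animals 3, 13 and 15 and to 579, 6986 and 5445 CPM in aged animals 3, 4 and 7, with Myh6 and Myl2 read in every heart. Young animal 15 stood apart from the other two young donor hearts, and on the first principal component of all genes tested, which held 77.1% of the variance, it lay at 10.35 against -113.7 and -120.7 for young animals 3 and 13 and 49.86 to 116.1 for the aged donor hearts. It lay nearer the aged mean than the mean of young animals 3 and 13 in 31 of the 45 members tested (68.9%), beside 69.7% of all genes tested. For the 12 members whose call changed without this heart, 10 gained and 2 lost, the value without it is given beside the result. In bulk tissue, fewer cells of a type and less RNA per cell cannot be told apart.

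By unadjusted p, aged donor hearts had more activin beta subunit mRNA, less inhibin alpha mRNA, and more Tgfb1 and Tgfbr1 than young donor hearts. They had less Tgfb3, Ltbp3, Ltbp4, Bmpr1a, Acvr1 and Acvr2a. The calls of Tgfb1, Tgfb3 and Acvr2a were lost on leaving out any of several single hearts. Those of Tgfb3, Ltbp3, Bmpr1a, Acvr1 and Acvr2a were lost with library totals alone as the scaling. None of the 7 Smads tested passed the limits. The limits were those of the study, a ratio of aged to young over 1.5 or under 0.67 together with p under 0.05 before adjustment, applied here to edgeR's quasi-likelihood test. Of the 65 members, 45 passed the filter on low counts. Of those 45, 9 (20%) were higher in aged donor hearts, beside 13.2% of all genes tested, and 11 (24.4%) were lower, beside 19.0%. The remaining 25 did not pass the limits. Either direction took 44.4% of the members tested, beside 32.2% of all genes tested, and the median log2 fold change was 0.03 for the members and 0.02 for all genes. With library totals alone as the scaling, which moved the median over all genes to 0.455, 12 members were higher and 4 lower, beside 22.8% and 10.5% of all genes tested. Without young animal 15 the members past the limits were 17 higher and 11 lower, beside 26.9% and 24.2% of all genes tested. These shares are descriptions and the difference between members and other genes was not tested.

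After Benjamini-Hochberg adjustment over all genes, edgeR gave an adjusted p under 0.05 to 0 members and to 0% of all genes tested. At an unadjusted p under 0.05 it gave 20 members (44.4%), beside 34.3% of all genes tested. DESeq2 gave 15 members (33.3%) with an adjusted p under 0.05, beside 26.1% of all genes. With limma-voom and sample quality weights 32 members (71.1%) had one, beside 61.1% of all genes, and with edgeR without young animal 15 it was 27 members (58.7% of the 46 then tested), beside 48.3%. The smallest adjusted p of edgeR was 0.0916 for a member and 0.0916 for any gene, and for the 20 members past the limits it ran from 0.0916 to 0.142. In 20 members (44.4%) the 3 aged donor hearts lay all above (10 members) or all below (10) the 3 young donor hearts, beside 21.0% and 20.6% of all genes tested and 41.6% in either direction. Of the 20 members past the limits, 18 were in this state, and Tgfb3 and Chrd were the other two. Fstl1, Inha, Inhba, Inhbb, Ltbp4, Tgfbr1 and Tgfbrap1, 7 in all, stayed past the limits in all 12 alternatives, and none of the 20 changed sign in any of them.

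**Figure D1:**
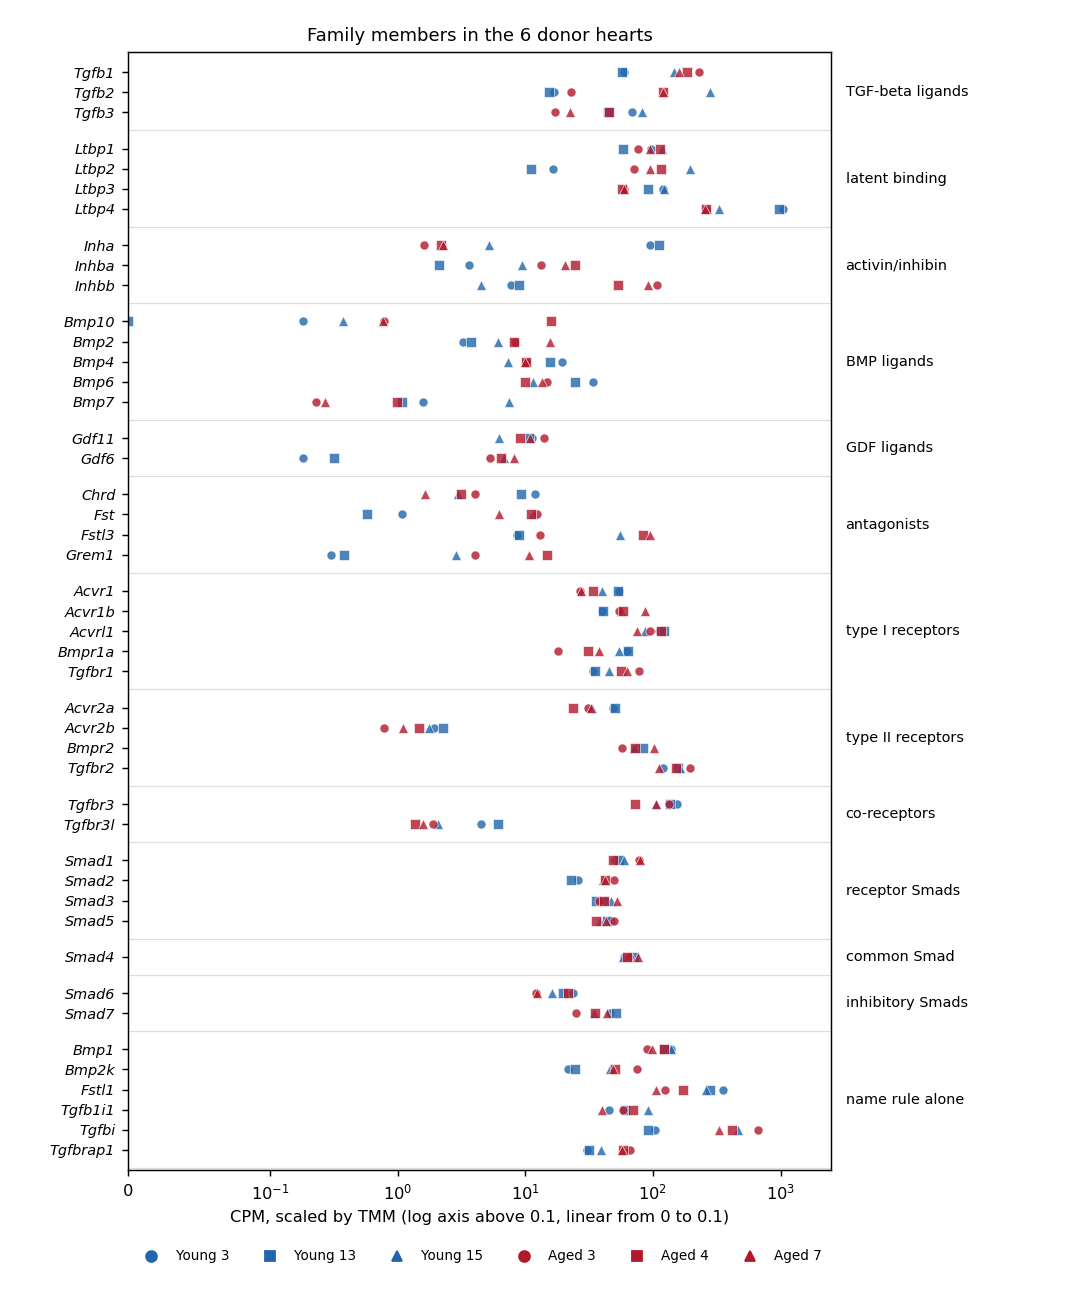
Level of the 45 family members tested in each of the 6 hearts, as TMM-scaled CPM (log axis above 0.1), grouped by role, with blue for young and red for aged donor hearts and 1 symbol per animal. Inhbb lies at 4.54 to 8.97 CPM in the young and 53.5 to 108 CPM in the aged donor hearts, and the blue triangles of young animal 15 often lie among the red symbols.

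**Figure D2:**
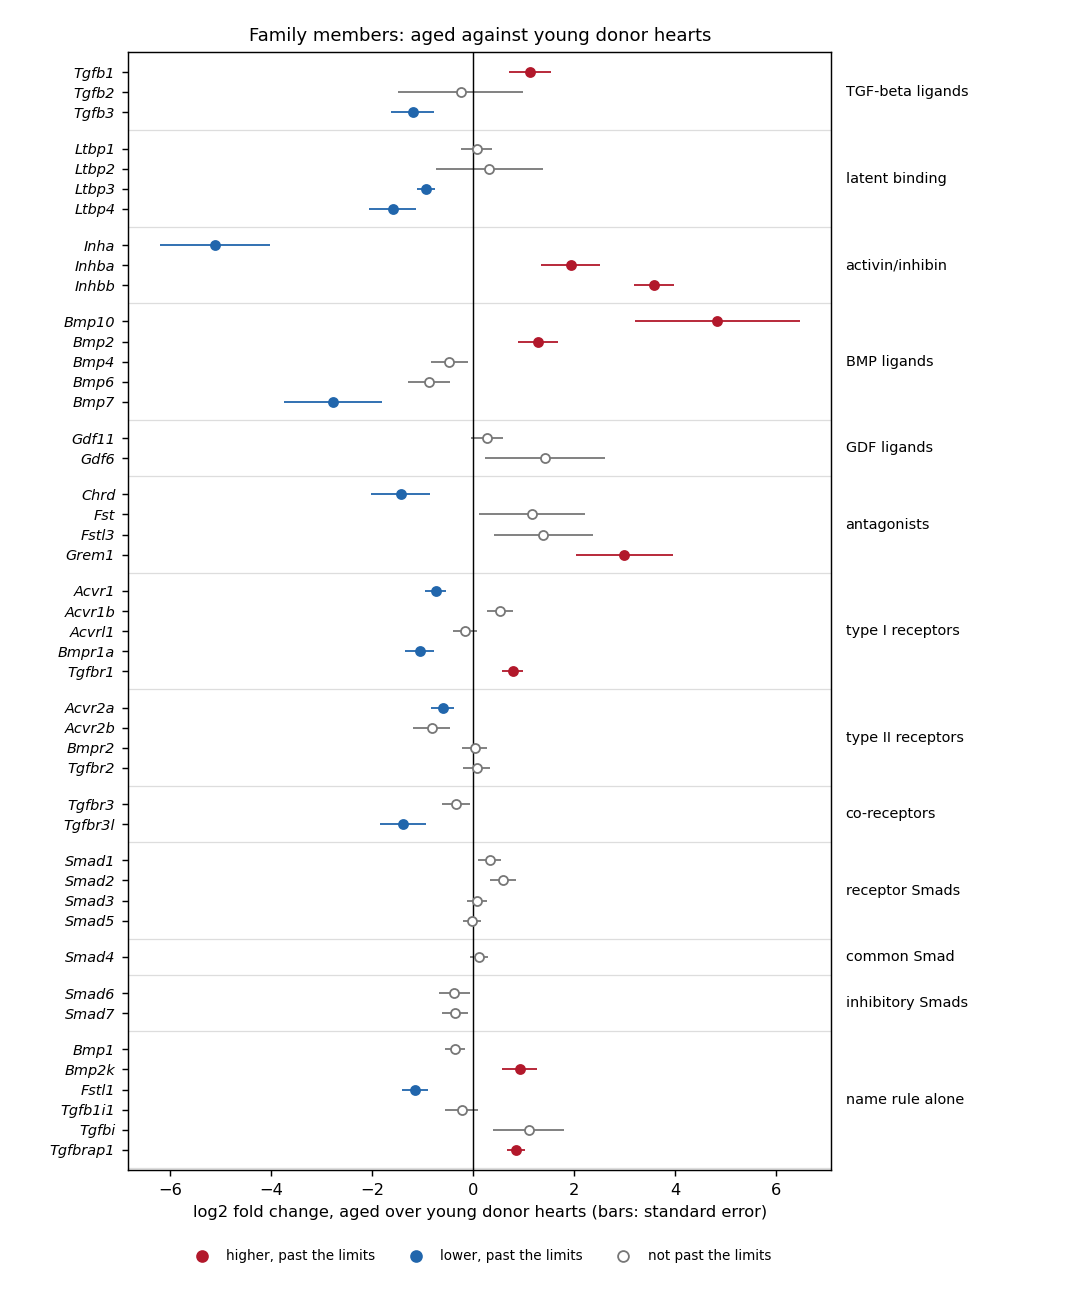
Log2 fold change of each member tested, aged over young donor hearts, with its standard error from edgeR, grouped by role. Filled points mark the 9 members higher (red) and the 11 lower (blue) past the limits, and the Smads are all open points.

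Coordinates given below with a gene identifier are those of the deposited table and span whole genes. For that table the submitters' notes name the build Rnor_6.0. Coordinates given with a promoter sequence are those of its 250 bases on the build GRCr8. Promoter sequence was available for 53 of the 65 members from RefSeq, on the build GRCr8. The 250 bases before the start were searched on both strands for GGGCGG, the GC box that the transcription factor SP1 binds, with overlapping matches counted. The study measured SP1 in donor hearts before transplantation. The box was present in 64.2% of the member promoters (34 of 53), in 57.8% of the promoters of all genes tested, and in 30.5% of all promoters in the RefSeq table. Among members it was present in 5 of 8 that were higher, 5 of 9 that were lower, and 16 of 20 tested members that did not pass the limits. CAGAC, the letters of a Smad box, was found in 32.1% of the member promoters (17 of 53) and 42.9% of all promoters, with Tgfbrap1 the 1 higher member and Inha the 1 lower member that held it. These matches describe letters in a window and nothing was drawn from them about either factor.

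The promoters of a higher member, a lower member and the member with the largest fall are shown so that their makeup can be compared, with every GC box in capitals, on the strand of the gene. Tgfbr1 (chr5:66449148-66449397, + strand) and Fstl1 (chr11:76454054-76454303, - strand) each held 3 boxes and Inha (chr9:84442859-84443108, + strand) held 0.
Tgfbr1: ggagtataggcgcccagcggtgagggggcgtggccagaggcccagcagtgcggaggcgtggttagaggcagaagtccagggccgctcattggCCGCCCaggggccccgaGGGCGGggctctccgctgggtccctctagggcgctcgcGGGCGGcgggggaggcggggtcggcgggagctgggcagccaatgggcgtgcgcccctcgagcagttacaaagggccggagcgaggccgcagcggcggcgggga
Fstl1: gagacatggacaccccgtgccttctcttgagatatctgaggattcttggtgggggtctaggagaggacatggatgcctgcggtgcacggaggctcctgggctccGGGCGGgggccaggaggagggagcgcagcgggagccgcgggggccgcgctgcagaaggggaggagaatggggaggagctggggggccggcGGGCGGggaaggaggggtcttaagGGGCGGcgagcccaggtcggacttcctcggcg
Inha: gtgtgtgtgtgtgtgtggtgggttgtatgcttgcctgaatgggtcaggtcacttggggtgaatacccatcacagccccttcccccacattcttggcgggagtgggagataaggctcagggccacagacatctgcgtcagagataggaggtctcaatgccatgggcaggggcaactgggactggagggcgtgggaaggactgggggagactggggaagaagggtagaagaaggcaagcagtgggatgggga

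Among the TGF-beta ligands, Tgfb1 was higher and Tgfb3 lower in aged donor hearts. Tgfb1 (ENSRNOG00000020652, chr1:82480195-82497199, + strand), the isoform made by macrophages, platelets and many other cells, was at 59.7, 56.8 and 146 CPM in young animals 3, 13 and 15 and at 231, 184 and 159 CPM in aged animals 3, 4 and 7. No young donor heart reached the lowest aged value, and young animal 15 came closest. The log2 fold change was 1.13 ± 0.42 (SE, edgeR adjusted p = 0.123), and it ranged from 0.89 to 1.75 when 1 heart was left out, the upper value without young animal 15 and past the limits. The call was lost without young animal 3 (0.91), young animal 13 (0.89), aged animal 3 (0.97), aged animal 4 (1.16) or aged animal 7 (1.25).

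Tgfb3 (ENSRNOG00000009867, chr6:109913757-109935533, - strand) was at 68.9, 44.3 and 82.2 CPM in the young and at 17.2, 45.5 and 22.3 CPM in the aged donor hearts. The groups overlapped, since aged animal 4 lay just above young animal 13. In edgeR the log2 fold change was -1.20 ± 0.42 (SE, edgeR adjusted p = 0.114). The call was lost without young animal 3 (-1.16), young animal 15 (-0.96), aged animal 3 (-0.94) or aged animal 7 (-1.05), and with library totals alone as the scaling (-0.83).

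Tgfb2 did not pass the limits, and its values turned on a single heart. It was at 16.7, 15.5 and 280 CPM in the young and at 22.8, 121 and 119 CPM in the aged donor hearts, so that young animal 15 had the highest level of all and young animals 3 and 13 the lowest. This gave a log2 fold change of -0.25 ± 1.23 (SE), and without young animal 15 it was 2.48 ± 0.75 (SE) and past the limits. Within a heart, Tgfb1 made up 48.0%, 56.5% and 41.5% of the Tgfb1, Tgfb2 and Tgfb3 transcripts per length in young animals 3, 13 and 15, and 90.1%, 65.5% and 67.3% in aged animals 3, 4 and 7. The means were 48.7% ± 7.5 and 74.3% ± 13.7 (SD, n = 3 each), a difference of 25.6 percentage points that did not overlap between groups (two-sided exact permutation test, p = 0.1, the smallest this design allows). Between 1833 and 12307 reads stood behind each share.

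**Figure D3:**
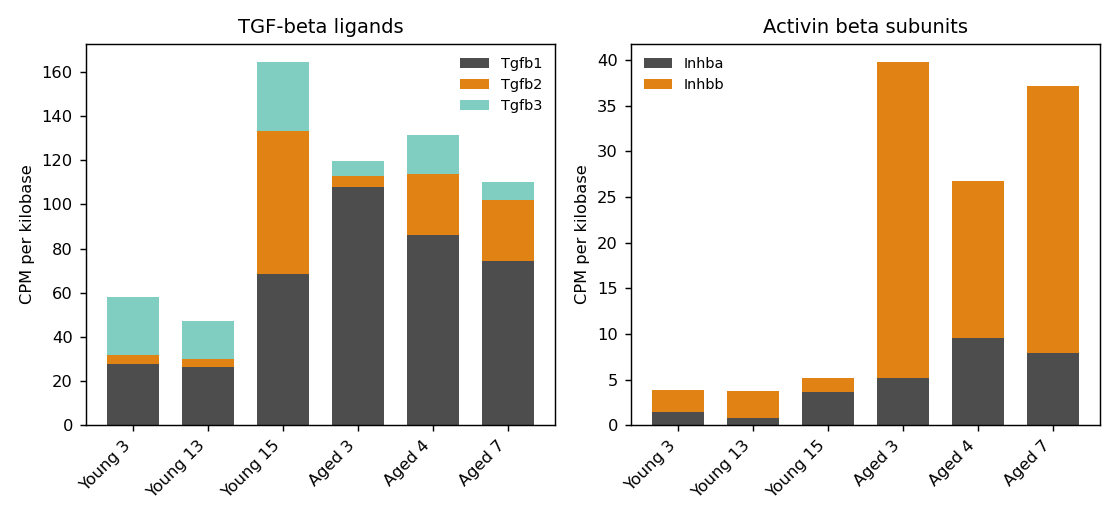
Levels per transcript length (CPM per kilobase) in each heart, stacked, for the 3 TGF-beta ligands (left) and the activin beta subunits Inhba and Inhbb (right). Tgfb1 takes 65.5% to 90.1% of the left stack in aged donor hearts and 41.5% to 56.5% in young donor hearts, and the right stack is taller in every aged donor heart.

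Of the latent TGF-beta binding proteins, Ltbp3 and Ltbp4 were lower and Ltbp1 and Ltbp2 did not pass the limits. Ltbp4 (ENSRNOG00000020871, chr1:84118046-84150084, - strand), a matrix protein that carries latent TGF-beta and takes part in elastic fibre assembly, was at 1035, 974 and 329 CPM in the young and at 262, 259 and 254 CPM in the aged donor hearts. The aged donor hearts were close to one another and below all young donor hearts, of which young animal 15 was nearest to them. Aged over young, the log2 fold change was -1.59 ± 0.46 (SE, edgeR adjusted p = 0.0927), and -1.04 with library totals alone. Ltbp3 (ENSRNOG00000020813, chr1:221099998-221116096, + strand) was at 120, 92.3 and 121 CPM in the young and 59.5, 57.0 and 59.0 CPM in the aged donor hearts, with no overlap and with young animal 15 at the young level. Between the groups the log2 fold change was -0.93 ± 0.18 (SE, edgeR adjusted p = 0.0916), and with library totals alone it was -0.50 and no longer past the limits.

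Ltbp1 had a log2 fold change of 0.06 ± 0.30 (SE). Ltbp2, which shares the domains of the others but does not bind latent TGF-beta, was at 16.6, 11.1 and 197 CPM in the young and at 70.6, 116 and 94.3 CPM in the aged donor hearts. Young animals 3 and 13 were the lowest and young animal 15 the highest. The gene had a log2 fold change of 0.32 ± 1.05 (SE), and without young animal 15 it was 2.79 ± 0.31 (SE) and past the limits. The Ltbp2 share of the 4 latent binding protein transcripts, per length, was 1.04%, 0.773% and 21.3% in the young and 12.3%, 17.8% and 15.6% in the aged donor hearts, a difference of 7.51 percentage points (two-sided exact permutation test, p = 0.4). Without young animal 15 the groups did not overlap and the difference was 14.3 percentage points (two-sided exact permutation test, p = 0.2, the smallest possible with that heart left out).

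Of the activin and inhibin subunits, Inhba and Inhbb were higher and Inha lower in aged donor hearts, in all 12 alternatives. Inhbb (ENSRNOG00000060237, chr13:35436532-35442222, - strand), the activin beta B subunit, was at 7.74, 8.97 and 4.54 CPM in young animals 3, 13 and 15 and at 108, 53.5 and 91.2 CPM in aged animals 3, 4 and 7. No aged donor heart came near a young one, and young animal 15 was the lowest of the 6 hearts. Its log2 fold change was 3.57 ± 0.39 (SE, edgeR adjusted p = 0.0916). Inhba (ENSRNOG00000014320, chr17:51898217-51912496, - strand), the beta A subunit, was at 3.63, 2.10 and 9.38 CPM in the young and at 13.2, 24.5 and 20.3 CPM in the aged donor hearts, with no overlap and young animal 15 the nearest to the aged level. The log2 fold change was 1.93 ± 0.58 (SE, edgeR adjusted p = 0.0953), and 2.79 without young animal 15.

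Inha (ENSRNOG00000020097, chr9:82700468-82703400, + strand) encodes the inhibin alpha subunit, which pairs with a beta subunit to form inhibin, an opponent of activin. It was at 94.0, 111 and 5.25 CPM in the young and at 1.61, 2.20 and 2.26 CPM in the aged donor hearts. The aged donor hearts were all low, young animals 3 and 13 were high, and young animal 15 lay close to the aged level. In edgeR the log2 fold change was -5.11 ± 1.09 (SE, edgeR adjusted p = 0.0916). The summed cardiomyocyte markers moved with it, at 91560, 101400 and 12130 CPM in the young and 579 to 6986 CPM in the aged donor hearts, with 5 of 10 markers lower past the limits. Their part in the Inha result was not tested.

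Per length, beta B transcripts outnumbered beta A in every heart but young animal 15. Inhba made up 36.4%, 22.2% and 71.6% of the beta subunit transcripts in the young and 13%, 35.8% and 21.4% in the aged donor hearts, from 174 to 337 reads per young and 2057 to 3690 reads per aged donor heart. The mean shares were 43.4% ± 25.4 and 23.4% ± 11.6 (SD, n = 3 each), and the difference of -20.0 percentage points did not exceed the spread between hearts (two-sided exact permutation test, p = 0.2). Without young animal 15 the difference was -5.93 percentage points (two-sided exact permutation test, p = 0.4). In mean level per length over the 3 hearts of a group, Inha stood at 49.0 CPM per kilobase against 1.97 for Inhba and 2.27 for Inhbb in young donor hearts, and at 1.42 against 7.56 and 27.0 in aged donor hearts. The young mean of Inha came from 65.7 and 77.6 in young animals 3 and 13. In young animal 15 Inha stood at 3.67, Inhba at 3.67 and Inhbb at 1.46 CPM per kilobase. Inhbc and Inhbe had at most 5 reads in any heart and were not tested. With no filter on low counts Inhbe was higher past the limits, on 0 reads in every young donor heart and 3, 3 and 1 reads in the aged ones.

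**Figure D4:**
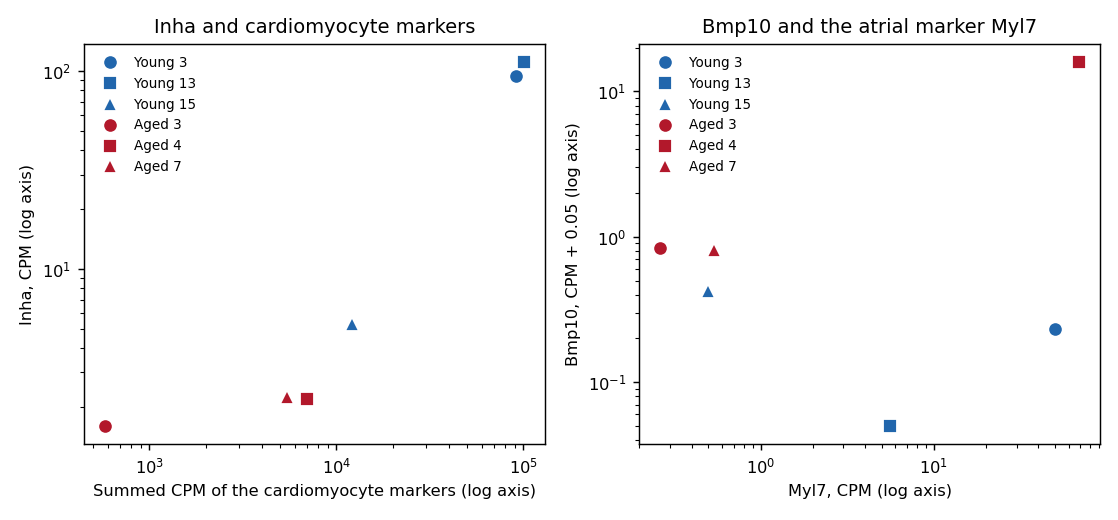
Left, Inha (CPM) against the summed cardiomyocyte markers (CPM) in each heart, both on log axes. Right, Bmp10 (CPM + 0.05) against the atrial marker Myl7 (CPM), both on log axes. Inha is highest in young animals 3 and 13, where the marker sum is highest, and Bmp10 is highest in aged animal 4, where Myl7 is highest at 69.2 CPM.

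Among BMP ligands, Bmp2 and Bmp10 were higher and Bmp7 lower, and Bmp4 and Bmp6 did not pass the limits. Bmp2 (ENSRNOG00000021276, chr3:126335863-126346318, + strand) was at 3.27, 3.75 and 6.15 CPM in the young and at 8.31, 8.15 and 15.6 CPM in the aged donor hearts. The groups did not overlap and aged animal 7 was the highest. This gave a log2 fold change of 1.28 ± 0.40 (SE, edgeR adjusted p = 0.0976), and the call was lost without young animal 3 (1.10), young animal 13 (1.18) or aged animal 7 (0.91). Bmp7 (ENSRNOG00000053384, chr3:170879973-170955399, - strand) was at 1.57, 1.08 and 7.52 CPM in the young and at 0.230, 0.986 and 0.268 CPM in the aged donor hearts. Young and aged values did not overlap, although aged animal 4 lay close to young animal 13 and young animal 15 was far above all others. Aged over young, the log2 fold change was -2.78 ± 0.97 (SE, edgeR adjusted p = 0.113), and the call was lost without young animal 15 (-1.39), aged animal 3 (-2.43) or aged animal 7 (-2.49), while without aged animal 4 it was -3.75.

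Bmp10 (ENSRNOG00000009316, chr4:119225040-119230728, + strand), a BMP made mainly by atrial cardiomyocytes in the adult heart, was high in 1 heart. It was at 0.182, 0 and 0.372 CPM in the young and at 0.788, 15.9 and 0.766 CPM in the aged donor hearts. The groups did not overlap, and aged animal 4 lay far above the other two aged donor hearts. Between the groups the log2 fold change was 4.83 ± 1.63 (SE, edgeR adjusted p = 0.107). It was 5.91 without young animal 15. Without aged animal 4 it was 1.96 ± 1.02 (SE) and not past the limits, and the call was also lost without young animal 3 (4.78) or young animal 13 (4.33). DESeq2 put it at 4.94 but gave no p-value, so the call was lost there too. The filter of 1 CPM in 3 hearts left Bmp10 out, so it had 11 alternatives.

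The tissue was labelled left ventricle, and atrial markers were also highest in aged animal 4. Myl7, an atrial myosin light chain, was at 49.7, 5.60 and 0.496 CPM in the young and at 0.263, 69.2 and 0.537 CPM in the aged donor hearts. The 3 atrial markers together summed to 150 CPM in aged animal 4, 62.4 CPM in young animal 3, and 1.08 to 7.44 CPM in the other hearts. Myl2, a ventricular myosin light chain, was at 27.3 CPM in aged animal 4. The part of the atrial markers in the Bmp10 result was not tested.

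Bmp4 was at 19.4, 15.6 and 7.35 CPM in the young and at 10.2, 10.1 and 10.0 CPM in the aged donor hearts, with young animal 15 below and the other young donor hearts above the aged level. The gene had a log2 fold change of -0.48 ± 0.37 (SE), and without young animal 15 it was -0.75 ± 0.18 (SE) and past the limits, while with library totals alone it was 0.06. Bmp6, the BMP ligand with the highest level per length (11.9 CPM per kilobase over the 6 hearts), was at 34.2, 24.5 and 11.4 CPM in the young and at 14.9, 9.97 and 13.6 CPM in the aged donor hearts. Young animal 15 again lay within the aged range. Its log2 fold change was -0.87 ± 0.42 (SE), and without young animal 15 it was -1.16 ± 0.25 (SE) and past the limits. Bmp3, Bmp5, Bmp8a, Bmp8b and Bmp15 were not tested, with at most 24 reads in any heart.

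Of the GDF ligands, Gdf11 had the highest level per length at 2.59 CPM per kilobase over the 6 hearts and a log2 fold change of 0.27 ± 0.31 (SE). With library totals alone that of Gdf11 was 0.79 and past the limits. Gdf6 was at 0.182, 0.318 and 6.77 CPM in the young and at 5.32, 6.48 and 8.12 CPM in the aged donor hearts, with young animal 15 inside the aged range. The log2 fold change was 1.42 ± 1.19 (SE), and without young animal 15 it was 4.75 ± 0.44 (SE) and past the limits. Gdf1 and Gdf2 had 0 reads in every heart, and Gdf3, Gdf5, Gdf7, Gdf9 and Gdf10 had at most 27 in any heart, so 7 of the 9 GDF ligands were not tested. With no filter on low counts, which tested 17 more members, Gdf10 was lower past the limits (edgeR adjusted p = 0.095), with 27, 9 and 11 reads in young animals 3, 13 and 15 and 1, 1 and 0 reads in aged animals 3, 4 and 7. In that fit 11.5% of all genes were higher and 16.2% lower past the limits.

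Among type I receptors, Tgfbr1 was higher, Bmpr1a and Acvr1 were lower, and Acvrl1 and Acvr1b did not pass the limits. Tgfbr1 (ENSRNOG00000007036, chr5:63050758-63119635, + strand), the type I receptor for TGF-beta, was at 34.1, 35.0 and 45.1 CPM in young animals 3, 13 and 15 and at 77.5, 55.9 and 62.7 CPM in aged animals 3, 4 and 7. Every aged donor heart lay above every young one. In edgeR the log2 fold change was 0.78 ± 0.20 (SE, edgeR adjusted p = 0.0916), and Tgfbr1 was past the limits in all 12 alternatives, at 1.20 with library totals alone.

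The BMP receptor Bmpr1a (ENSRNOG00000052469, chr16:10758527-10802512, - strand) was at 62.6, 63.8 and 54.5 CPM in the young and at 18.0, 31.1 and 37.8 CPM in the aged donor hearts. The young donor hearts, young animal 15 included, were close together and above all aged donor hearts. This gave a log2 fold change of -1.06 ± 0.29 (SE, edgeR adjusted p = 0.092). Acvr1 (ENSRNOG00000005033, chr3:44432471-44522930, - strand), which binds BMPs and activins, was at 54.7, 53.7 and 39.6 CPM in the young and at 26.8, 34.0 and 27.5 CPM in the aged donor hearts, again without overlap. Aged over young, the log2 fold change was -0.74 ± 0.20 (SE, edgeR adjusted p = 0.0919). Both falls held when any 1 heart was left out and were lost with library totals alone, where the log2 fold change was -0.61 for Bmpr1a and -0.27 for Acvr1.

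Acvrl1, the endothelial type I receptor and the one with the highest level per length (27.8 CPM per kilobase over the 6 hearts), had a log2 fold change of -0.16 ± 0.24 (SE) and overlapping groups, and with library totals alone its sign changed. Acvr1b, the activin type I receptor, had a log2 fold change of 0.53 ± 0.25 (SE). Without young animal 15 it was 0.76 ± 0.24 (SE) and past the limits, as it was with library totals alone (0.93). Acvr1c and Bmpr1b had at most 7 reads in any heart and were not tested.

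Of the type II receptors, Acvr2a passed the limits and Acvr2b, Bmpr2 and Tgfbr2 did not. Acvr2a (ENSRNOG00000005334, chr3:32947378-33034282, + strand), which binds activins and several BMPs, was at 48.9, 50.9 and 33.3 CPM in the young and at 30.9, 23.8 and 32.7 CPM in the aged donor hearts. Young and aged values did not overlap, with young animal 15 barely above aged animal 7. Between the groups the log2 fold change was -0.61 ± 0.23 (SE, edgeR adjusted p = 0.128). The call was lost with library totals alone (-0.11) and without young animal 3 (-0.53), young animal 13 (-0.50), aged animal 3 (-0.64), aged animal 4 (-0.47) or aged animal 7 (-0.69).

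Tgfbr2, the TGF-beta type II receptor and the highest of the type II receptors per length (53.7 CPM per kilobase over the 6 hearts), was at 120, 156 and 163 CPM in the young and at 195, 152 and 111 CPM in the aged donor hearts. The groups overlapped fully. The gene had a log2 fold change of 0.06 ± 0.27 (SE), and whether it differed from that of Tgfbr1 was not tested. Bmpr2 had a log2 fold change of 0.03 ± 0.24 (SE), with another annotated gene overlapping it on the opposite strand. Acvr2b lay lower in every aged donor heart, at 0.788 to 1.48 CPM against 1.78 to 2.29 CPM, with a log2 fold change of -0.83 ± 0.37 (SE).

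Tgfbr3l (ENSRNOG00000050573, chr12:2542612-2545740, - strand), a relative of betaglycan, was at 4.54, 6.17 and 2.07 CPM in the young and at 1.91, 1.37 and 1.57 CPM in the aged donor hearts. The groups did not overlap, and young animal 15 lay next to aged animal 3. Its log2 fold change was -1.39 ± 0.46 (SE, edgeR adjusted p = 0.104). The call was lost with library totals alone (-0.84) and without young animal 3 (-1.34), young animal 13 (-1.02), aged animal 4 (-1.28) or aged animal 7 (-1.36). Betaglycan itself, Tgfbr3, which presents TGF-beta2 and inhibin to the receptors and had the higher level per length of the pair, had a log2 fold change of -0.34 ± 0.28 (SE), and with library totals alone its sign changed.

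None of the 7 Smads tested passed the limits with edgeR, where 0 had an unadjusted p under 0.05, or with DESeq2, while limma-voom placed Smad2 and Smad6 past them. Among receptor-regulated Smads, Smad2 came nearest, at 25.8, 22.9 and 40.8 CPM in the young and at 49.9, 42.2 and 42.1 CPM in the aged donor hearts. The highest young value, that of young animal 15, was just under the lowest aged value. The log2 fold change of Smad2 was 0.58 ± 0.26 (SE), and without young animal 15 it was 0.92 ± 0.15 (SE) and past the limits, as it was with limma-voom (0.80) and library totals alone (0.97). Smad1, the highest of these per length (20.6 CPM per kilobase over the 6 hearts), had a log2 fold change of 0.32 ± 0.23 (SE). That of Smad3 was 0.08 ± 0.20 (SE) and that of Smad5 was -0.02 ± 0.18 (SE), the latter changing sign with library totals alone. Smad9 had 0 to 3 reads per heart and was not tested.

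Smad4, the partner shared by all branches, was at 59.4, 71.5 and 57.8 CPM in the young and at 64.8, 62.8 and 76.7 CPM in the aged donor hearts, with a log2 fold change of 0.11 ± 0.17 (SE). The inhibitory Smads had log2 fold changes of -0.37 ± 0.30 for Smad6 and -0.36 ± 0.26 for Smad7 (SE), and both changed sign with library totals alone. Smad6 passed the limits with limma-voom (-0.59) and without aged animal 4 (-0.69). Smad2 and Smad3 together made up 33.1% ± 5.4 of the receptor-regulated Smad transcripts per length in young and 37.2% ± 4.1 in aged donor hearts (SD, n = 3 each), a difference of 4.12 percentage points (two-sided exact permutation test, p = 0.4). Without young animal 15, at 39.1%, the 2 young donor hearts left, at 31.6% and 28.6%, lay below the aged ones, at 34.3%, 41.8% and 35.6%. The difference was then 7.11 percentage points (two-sided exact permutation test, p = 0.2, the smallest possible with that heart left out). Smad7 made up 41.6% ± 3.5 and 42.2% ± 9.6 of the inhibitory Smad transcripts (two-sided exact permutation test, p = 0.9, n = 3 each).

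The secreted antagonists had no common direction. Grem1 (ENSRNOG00000026053, chr3:105203309-105214989, - strand), which traps BMP2 and BMP4, was at 0.303, 0.382 and 2.89 CPM in the young and at 4.01, 14.8 and 10.7 CPM in the aged donor hearts. Young and aged values did not overlap, and young animal 15 was the nearest of the young donor hearts to the aged level. The log2 fold change was 2.99 ± 0.97 (SE, edgeR adjusted p = 0.101), without young animal 15 it was 4.86, and without aged animal 4 it was 2.59 and no longer past the limits. Chrd (ENSRNOG00000001750, chr11:83858503-83867203, - strand), encoding the BMP antagonist chordin, was at 11.9, 9.28 and 2.97 CPM in the young and at 4.07, 3.15 and 1.65 CPM in the aged donor hearts. The groups overlapped because young animal 15 lay below aged animals 3 and 4. The log2 fold change of Chrd was -1.44 ± 0.59 (SE, edgeR adjusted p = 0.142), with the call lost under library totals alone (-0.86) and without young animal 3 (-1.05), young animal 13 (-1.32), aged animal 3 (-1.73), aged animal 4 (-1.48) or aged animal 7 (-1.14).

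The activin traps follistatin and Fstl3 did not pass the limits with all hearts in. Fst was at 1.09, 0.572 and 11.4 CPM in the young and at 12.3, 11 and 6.25 CPM in the aged donor hearts. Young animal 15 stood among the aged donor hearts and far from the other two young ones. In edgeR the log2 fold change was 1.16 ± 1.05 (SE), and 3.59 ± 0.48 (SE) and past the limits without young animal 15. Fstl3, the antagonist with the highest level per length (23.1 CPM per kilobase over the 6 hearts), was at 8.59, 8.90 and 55.0 CPM in the young and at 13, 83.3 and 94.2 CPM in the aged donor hearts, with a log2 fold change of 1.39 ± 0.99 (SE) and, without young animal 15, of 2.90 ± 0.86 (SE) and past the limits. Nog, encoding the BMP antagonist noggin, had at most 8 reads in any heart and was not tested.

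The name rule also took in 8 genes that are not ligands, receptors, Smads or classical antagonists, of which Fstl4 (0 reads) and Fstl5 (at most 2 reads) were not tested. Fstl1 (ENSRNOG00000002746, chr11:65782567-65845418, - strand), a secreted glycoprotein of mesenchymal cells, was at 353, 282 and 260 CPM in the young and at 124, 171 and 107 CPM in the aged donor hearts. All aged donor hearts lay below all young ones, and young animal 15 was at the young level. This gave a log2 fold change of -1.16 ± 0.26 (SE, edgeR adjusted p = 0.0916), and -0.69 with library totals alone. The fibroblast marker sum was 7810, 6253 and 7507 CPM in the young and 4146, 3439 and 2020 CPM in the aged donor hearts, with 2 of 6 markers, Col1a1 and Col3a1, lower past the limits. These collagens made up 64.3% to 85.6% of the sum in each heart. The other fibroblast markers did not pass the limits, had overlapping groups and shared no direction. Pdgfra, a receptor on fibroblasts, had a log2 fold change of 0.81 ± 0.40 (SE). Tcf21, a fibroblast transcription factor, had one of -0.06 ± 0.37 (SE). Lum had a mean of 259.2 CPM in young and 129.5 CPM in aged donor hearts. Dcn had a mean of 619.5 CPM in young and 450.4 CPM in aged donor hearts. The part of the fibroblast markers in the Fstl1 result was not tested.

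Tgfbrap1 (ENSRNOG00000024562, chr9:49852560-49902943, - strand), which associates with TGF-beta receptors and takes part in endosomal trafficking, was at 30.3, 31.4 and 39.5 CPM in the young and at 65.8, 58.0 and 57.5 CPM in the aged donor hearts, without overlap and with little spread within a group. Aged over young, the log2 fold change was 0.84 ± 0.18 (SE, edgeR adjusted p = 0.0916). Bmp2k (ENSRNOG00000002040, chr14:14129725-14192048, - strand), a kinase first found as BMP2-inducible, was at 21.8, 24.6 and 45.8 CPM in the young and at 74.9, 50.7 and 48.4 CPM in the aged donor hearts. The groups did not overlap, and young animal 15 lay just below aged animal 7. Between the groups the log2 fold change was 0.92 ± 0.34 (SE, edgeR adjusted p = 0.124), with the call lost without young animal 3 (0.72), young animal 13 (0.78), aged animal 3 (0.69) or aged animal 4 (1.01).

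Tgfbi, a matrix protein induced by TGF-beta, had the highest level per length of all members (129 CPM per kilobase over the 6 hearts), followed by Ltbp4 (97.2), Fstl1 (69.0), Tgfb1 (65.1) and Tgfbr2 (53.7). Tgfbi was at 104, 91.1 and 464 CPM in the young and at 666, 416 and 330 CPM in the aged donor hearts, with young animal 15 inside the aged range. The gene had a log2 fold change of 1.10 ± 0.70 (SE), and without young animal 15 it was 2.31 ± 0.36 (SE) and past the limits. Bmp1, a procollagen proteinase, had a log2 fold change of -0.36 ± 0.19 (SE) and Tgfb1i1, a focal adhesion protein, one of -0.23 ± 0.33 (SE). Both of these changed sign with library totals alone.

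As groups, aged donor hearts had higher sums of white blood cell markers and more Tgfb1, Tgfbr1 and activin beta subunit mRNA. Within the young group, young animal 15 had the highest neutrophil and macrophage sums. It also had the highest young values of Tgfb1 (146 CPM), Tgfbr1 (45.1 CPM) and Inhba (9.38 CPM). Its Inhbb, at 4.54 CPM, was the lowest of the 6 hearts. The neutrophil markers summed to 16.8, 16.7 and 144 CPM in the young and to 1356, 355 and 767 CPM in the aged donor hearts, with 6 of the 8 tested higher past the limits and Mpo, made by neutrophil precursors, at or below 3 reads in every heart. The macrophage markers summed to 306, 282 and 869 CPM in the young and 2177, 1415 and 891 CPM in the aged donor hearts, with 5 of 8 tested higher. The platelet markers summed to 8.47, 10.1 and 24.3 CPM in the young and 118, 47.8 and 78.9 CPM in the aged donor hearts. Pf4 was the 1 platelet marker past the limits, at 4.72, 5.85 and 22.1 CPM and at 110, 46.0 and 74.2 CPM. Itga2b had a log2 fold change of 0.51 ± 0.57 (SE). The T cell markers summed to 29.0, 25.4 and 75.9 CPM and to 131, 117 and 86.2 CPM in young and aged donor hearts. Of the 4 tested, 0 passed the limits. Cd8a alone was at 2.42, 0.890 and 55.8 CPM and at 99.0, 88.3 and 63.8 CPM in the same hearts. Log2 fold changes were 0.24 ± 0.20 for Cd4, 0.53 ± 0.71 for Cd3e and -0.37 ± 0.45 for Cd3g (SE). Endothelial markers (0 of 6 past the limits) summed to 1153 to 1674 CPM in the young and 927 to 1420 CPM in the aged donor hearts, and smooth muscle and pericyte markers (1 of 6, lower) to 667 to 959 and 537 to 780 CPM. The part of these cell types in the members' results was not tested.

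Beyond the members, 61 other genes of the pathway were in the table and 52 passed the filter. Of these 52, 8 (15.4%) were higher and 10 (19.2%) lower past the limits, close to the 13.2% and 19.0% of all genes tested, with a median log2 fold change of 0.05. The 8 largest changes were those of Hjv, Sostdc1, Amhr2, Tgif1, Map3k7, Junb, Rgma and Col1a1. The BMP co-receptors Hjv and Rgma fell, with log2 fold changes of -3.99 ± 1.32 and -1.62 ± 0.40 (SE), the first of them from 193, 229 and 39.0 CPM to 0.328, 16.9 and 11.7 CPM and not past the limits without aged animal 7 (-4.14). Hjv is expressed in striated muscle, and the cardiomyocyte marker sum given above moved with it. Its part in the Hjv result was not tested. Amhr2, the type II receptor for anti-Muellerian hormone, had a log2 fold change of -2.84 ± 0.71 (SE), and Sostdc1, an antagonist of BMP and Wnt ligands, one of -3.25 ± 0.92 (SE), from 1.03 to 2.06 CPM to 0 to 0.345 CPM.

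Inside the cell, Tgif1, a corepressor that binds Smad2 and Smad3, was at 6.84, 6.49 and 19.2 CPM in the young and at 47.6, 42.6 and 62.2 CPM in the aged donor hearts, with no overlap. Its log2 fold change was 2.22 ± 0.48 (SE, edgeR adjusted p = 0.0916), and 2.97 without young animal 15. Map3k7, a kinase of the Smad-independent branch, was at 9.44 CPM in young animal 3 and between 0.796 and 1.78 CPM in the other 5 hearts. Its log2 fold change of -2.12 ± 0.79 (SE) became -0.75 and was not past the limits without young animal 3. It was also lost without aged animal 3 (-2.25), aged animal 4 (-1.99) or aged animal 7 (-2.10), with library totals alone (-1.56) and with limma-voom (-2.31). Amhr2, Bambi, Id2, Junb, Klf10, Nbl1, Rgma, Skil, Sostdc1 and Tgif1, 10 of the 18, stayed past the limits in all 12 alternatives.

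Of 15 textbook target genes, 3 (20%) were higher, 2 (13.3%) lower and 10 not past the limits, beside 13.2% and 19.0% of all genes tested. Junb, an early response transcription factor, rose by 1.97 ± 0.56 (SE), from 38.4, 32.4 and 125 CPM to 271, 207 and 289 CPM, and by 2.89 without young animal 15. Klf10, first found as an early TGF-beta-inducible gene, rose by 1.15 ± 0.28 (SE) and Id2, a BMP target, by 1.00 ± 0.27 (SE), all on the log2 scale and all without overlap. The other Id genes on the list did not pass the limits. Their log2 fold changes were 0.08 ± 0.26 for Id1, 0.55 ± 0.28 for Id3 and -0.47 ± 0.27 for Id4 (SE). The fibrillar collagens fell, Col1a1 from 1917, 1576 and 2661 CPM to 763, 1031 and 217 CPM and Col3a1 from 4766, 3734 and 3689 CPM to 2007, 1779 and 1083 CPM, with log2 fold changes of -1.61 ± 0.62 and -1.32 ± 0.44 (SE). Both are also among the fibroblast markers.

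The collagen calls depended on single hearts and on scaling. That of Col1a1 was lost without young animal 3 (-1.66), young animal 15 (-1.35), aged animal 3 (-1.71) or aged animal 7 (-1.19), and with library totals alone (-1.23). That of Col3a1 was lost without young animal 3 (-1.20), aged animal 4 (-1.39) or aged animal 7 (-1.09), and with library totals alone (-0.86). Id1, Id3, Id4 and Thbs1 are outside the rule for named genes and were chosen after their values were seen.

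**Figure D5:**
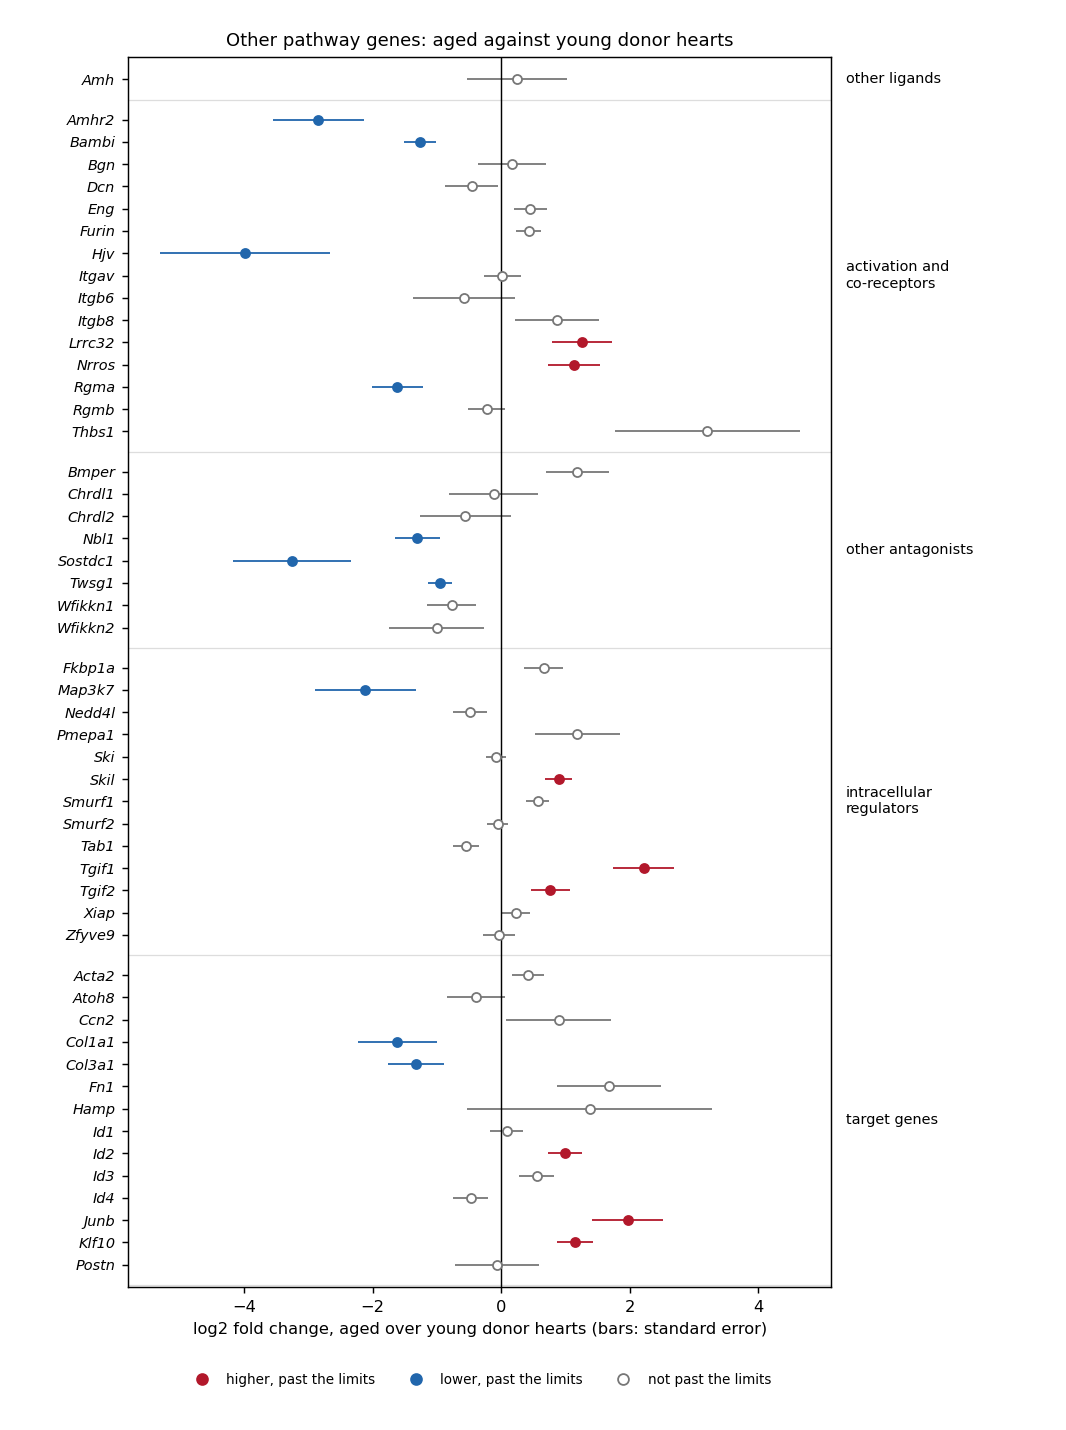
Log2 fold change, aged over young donor hearts, with its standard error from edgeR, for the other pathway genes tested except 1 that is not reported here, grouped by role. The 8 red points lie above 0 and the 10 blue points below it past the limits, and Thbs1, at 3.21 with a standard error of 1.44, has the highest value among the open points.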

How the data were processed

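Gene expression was measured by RNA-Seq of poly-A-selected RNA in 3 young and 3 aged donor hearts, 1 library per heart. The authors deposited the raw read count of each gene in each heart. The authors also deposited FPKM values, that is, counts per kilobase of gene and per unit of library size. Of these, 1 of 133500 departed from that definition by over 0.1%, and they were not tested. The submitters' processing notes name HISAT2 2.0.5, StringTie 1.3.3b, featureCounts 1.5.0-p3, DESeq2 1.16.1, GATK 3.7 and Rnor_6.0, and the strand setting is not given in the sources used here, so reads of overlapping genes may be mixed.

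The counts went into edgeR 4.0.16 under R 4.3.3 (filterByExpr, TMM, glmQLFit and glmQLFTest, no covariates), fitted over all 13784 genes that passed the filter. Standard errors were obtained from the log2 fold change and the F statistic of the test, and adjustment followed Benjamini and Hochberg (BH, Benjamini-Hochberg) over all genes tested. Shares within a heart were tested by two-sided exact permutation in scipy 1.17.1 (Python 3.11.15), which cannot give a p-value below 0.1 with 3 hearts a group. Levels of different genes were compared as CPM per kilobase. Alternatives were DESeq2's size factors, library totals alone, no filter on low counts, a filter of 1 CPM in 3 hearts, DESeq2 1.42.0, limma-voom (limma 3.58.1), and fits that omitted 1 heart. The edgeR step was tested on simulated data.

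The members and the gene lists were chosen with earlier results of these data known. The genes named were all members past the limits, the highest member per length in each role, all members not tested, the main ligands, receptors and Smads, the 8 largest changes among other pathway genes past the limits, and target genes past them. Where RefSeq lists several promoters for a symbol, the first was used. Protein sequences were not used here, and a few genes are not reported here by name.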

Additional observations from a re-analysis of the deposited data

How the results depend on the processing

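Of 755 values of single genes under an alternative setting, over the 45 members tested and the 18 other pathway genes past the limits, 628 kept their direction and side of the limits, 75 no longer passed them, 26 newly passed them, and 26 changed sign. The changes of sign were in 15 members, of which 0 were past the limits with all hearts in. With library totals alone the log2 fold change became 0.32 for Acvrl1, 0.070 for Bmp1, 0.055 for Bmp4, 0.45 for Smad5, 0.094 for Smad6, 0.12 for Smad7, 0.14 for Tgfb1i1 and 0.15 for Tgfbr3. With limma-voom it became 2.40 for Tgfb2 and -0.014 for Gdf11, and with no filter on low counts 0.000556 for Smad5. When 1 heart was left out it ranged from -0.21 to 0.21 for Bmpr2, -0.17 to 0.33 for Ltbp1, -0.19 to 2.79 for Ltbp2, -0.062 to 0.21 for Smad3, -0.13 to 0.10 for Smad5, -0.44 to 0.11 for Tgfb1i1, -0.76 to 2.48 for Tgfb2 and -0.14 to 0.26 for Tgfbr2, with the upper values of Ltbp2, Tgfb1i1 and Tgfb2 those without young animal 15. With limma-voom Bmp7 stood at -1.83, Chrd at -2.14, Grem1 at 4.70 and Inhba at 2.72, and with library totals alone Inha stood at -4.49, all past the limits. The count of higher members (9) was 17 with limma-voom, beside 26.8% of all genes, and 0 with Benjamini-Hochberg adjustment. When 1 heart was left out it was 5 to 17, beside 5.83% to 26.9% of all genes. The count of lower members (11) was 4 with library totals alone, beside 10.5% of all genes, and 0 with Benjamini-Hochberg adjustment. When 1 heart was left out it was 7 to 11, beside 11.5% to 24.2% of all genes. Members with an adjusted p under 0.05 (0 with edgeR) numbered 15 with DESeq2, 32 with limma-voom, and 0 to 27 when 1 heart was left out, the 27 without young animal 15, beside 26.1%, 61.1% and 48.3% of all genes in the same 3 fits. The members' median log2 fold change (0.03) was 0.452 with library totals alone, -0.166 with no filter on low counts, which tested 62 members, and -0.19 to 0.0911 when 1 heart was left out. Members whose groups did not overlap (20) numbered 20 to 33 when 1 heart was left out, the 33 without young animal 15. With fewer hearts in a group, non-overlap is easier to reach for any gene. The share of all genes was 41.6% with all hearts in and was not counted in these fits. The rise therefore cannot be read as particular to the members. Other pathway genes higher (8) numbered 14 with library totals alone, 20 with limma-voom, and 5 to 20 when 1 heart was left out. In the same fits 22.8%, 26.8% and 5.83% to 26.9% of all genes were higher. Other pathway genes lower (10) numbered 6 with library totals alone and 6 to 12 when 1 heart was left out. Of all genes, 10.5% and 11.5% to 24.2% were lower in those fits. The difference in the Smad7 share (0.677 percentage points) was -0.838 without young animal 3 and -4.62 without aged animal 7, and ranged from -4.62 to 4.71. The cause was not tested, except that leaving out a heart leaves fewer samples. No paired analysis was possible because the groups share only the number 3, which marks different animals.

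The groups hold 3 hearts each, and young animal 15 decides many values. Members with few reads were left out by the filter. With no filter, 17 more members were tested and 2 of them passed the limits, Inhbe on at most 3 reads per heart and Gdf10 on at most 27.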
